A study of Mus musculus with 2 samples.

Results

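DNA replication and mitosis genes were compared in CD4 T cells activated with antigen-presenting cells (APC) that carried or lacked an OX40 ligand (OX40L) transgene. The members were a fixed list of 45 genes, of which 26 act in replication and S phase and 19 in mitosis. They were chosen by function, with earlier results of these data known, and 44 had a probe set paired with 1 gene symbol, out of 17097 genes with a value. Ccnb1, the cyclin that drives entry into mitosis, was named by no probe set in the annotation used here, so it has no expression value and enters only the count of promoter motifs. In the OX40L-Tg APC group, naive CD62L-high CD44-low Foxp3-negative CD4 T cells of 6-week-old C57/Bl6 Foxp3-eGFP reporter mice were cultured for 48 hours with soluble anti-CD3 antibody and spleen cells of OX40L-Tg mice. The Wt APC group differed in the source of the spleen cells, which came from wild type B6 mice. In both groups the spleen cells had been depleted of T cells and briefly exposed to mitomycin C (50 ug/ml), a drug that blocks division, and living CD4 T cells were sorted again before RNA was taken. The promoter that drives the transgene and the number of mice behind each culture are not given in the sources used here. The labels' protocol for RNA extraction names adipose tissue, and of 7 adipocyte markers 4 had a value. Adipoq, Fabp4 and Lep read under 9 units on both arrays, below the array medians of 14.7 units, and Retn read 18.3 units with OX40L-Tg APC and 17.2 units with Wt APC, just above them.

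Each group had 1 Affymetrix HT MG-430 PM array, which leaves every value without a replicate and every difference without a test. Values are RMA intensities in linear units. A difference is the log2 value with OX40L-Tg APC less that with Wt APC. Where a gene had several probe sets, the one with the highest average log2 value was used. The floor was the median of each array, 3.88 on the log2 scale for both, and all 44 members were above it, as were 10541 genes in all. The members also stood above the 75th percentile of the arrays, which 6437 genes reached. RMA makes the overall distributions of the arrays alike, so a change in total RNA per cell would leave no trace here.

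A cell prepares each replication origin in G1 by loading the MCM helicase through the origin recognition complex, Cdc6 and Cdt1, and fires it in S phase when Cdc45, GINS and Mcm10 turn the helicase on. E2F factors, released when cyclin-dependent kinases phosphorylate the retinoblastoma protein, drive the transcription of these genes. The genes of mitosis peak later, under the B-Myb and FoxM1 factors and the MuvB complex, which binds the cell cycle genes homology region (CHR) of their promoters beside CCAAT boxes. T cells leave quiescence after receptor and costimulatory signals and enter a phase of very fast division, in which both sets of genes are strongly transcribed.

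The promoters of the members differed by set in these motifs, which the choice of members did not use. The RefSeq promoter table of build GRCm38.p6 gives the bases from 250 before to 50 after each annotated start, and it matched 38 member genes with 40 promoters. An E2F core, TTCGCGC or TTGGCGC on either strand, was present in 9 of 24 promoters of replication genes (37.5%), in 3 of 16 of mitosis genes (18.8%), and in 6.94% of 10924 promoters of genes above the floor. A CHR element, TTTGAA or TTCGAA on either strand, was present in 12 of 16 promoters of mitosis genes (75%), in 5 of 24 of replication genes (20.8%) and in 14.2% of promoters of genes above the floor. A CCAAT box on either strand, letters which a TTGGCGC core after an A also contains, was found in 14 mitosis and 18 replication promoters, or 87.5% and 75%, against 37.7% for genes above the floor. Each of the 12 mitosis and 5 replication promoters with a CHR element also held a CCAAT box, a pair that 5.67% of promoters of genes above the floor held. The mean GC content was 59.4% in the replication, 58.4% in the mitosis and 60.5% in the promoters of genes above the floor. Over all 32851 promoters of the table the shares were 3.89% for the E2F core, 19.2% for CHR and 37.4% for CCAAT. A match describes the letters of the window and does not show that a factor binds there, and E2F sites that depart from these cores, as many do, were not counted.

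The promoters with the most matches of their class are shown, both from RefSeq and read 5′ to 3′ along the gene. Mcm6, a subunit of the replicative helicase, lies at chr1:128359656-128359955 on the minus strand, and capitals mark its 5 E2F core matches, which overlap into 3 stretches. Top2a, the topoisomerase that untangles sister chromatids, lies at chr11:99024140-99024439 on the minus strand, and capitals mark its 4 CHR matches. The Mcm6 window held 0 CHR matches and 2 CCAAT boxes, and the Top2a window 0 E2F cores and 6 CCAAT boxes.
Mcm6: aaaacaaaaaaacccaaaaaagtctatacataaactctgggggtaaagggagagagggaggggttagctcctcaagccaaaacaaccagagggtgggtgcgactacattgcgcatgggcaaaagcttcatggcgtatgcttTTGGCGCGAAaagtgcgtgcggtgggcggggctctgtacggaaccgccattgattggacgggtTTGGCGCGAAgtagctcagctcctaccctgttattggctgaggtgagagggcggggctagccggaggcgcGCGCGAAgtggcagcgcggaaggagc
Top2a: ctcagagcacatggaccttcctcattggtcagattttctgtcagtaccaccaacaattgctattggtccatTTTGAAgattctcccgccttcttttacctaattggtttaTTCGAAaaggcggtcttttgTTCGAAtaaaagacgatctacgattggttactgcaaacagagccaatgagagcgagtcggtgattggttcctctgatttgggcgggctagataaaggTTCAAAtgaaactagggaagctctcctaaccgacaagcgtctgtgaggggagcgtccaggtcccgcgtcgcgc

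**Figure D1:**
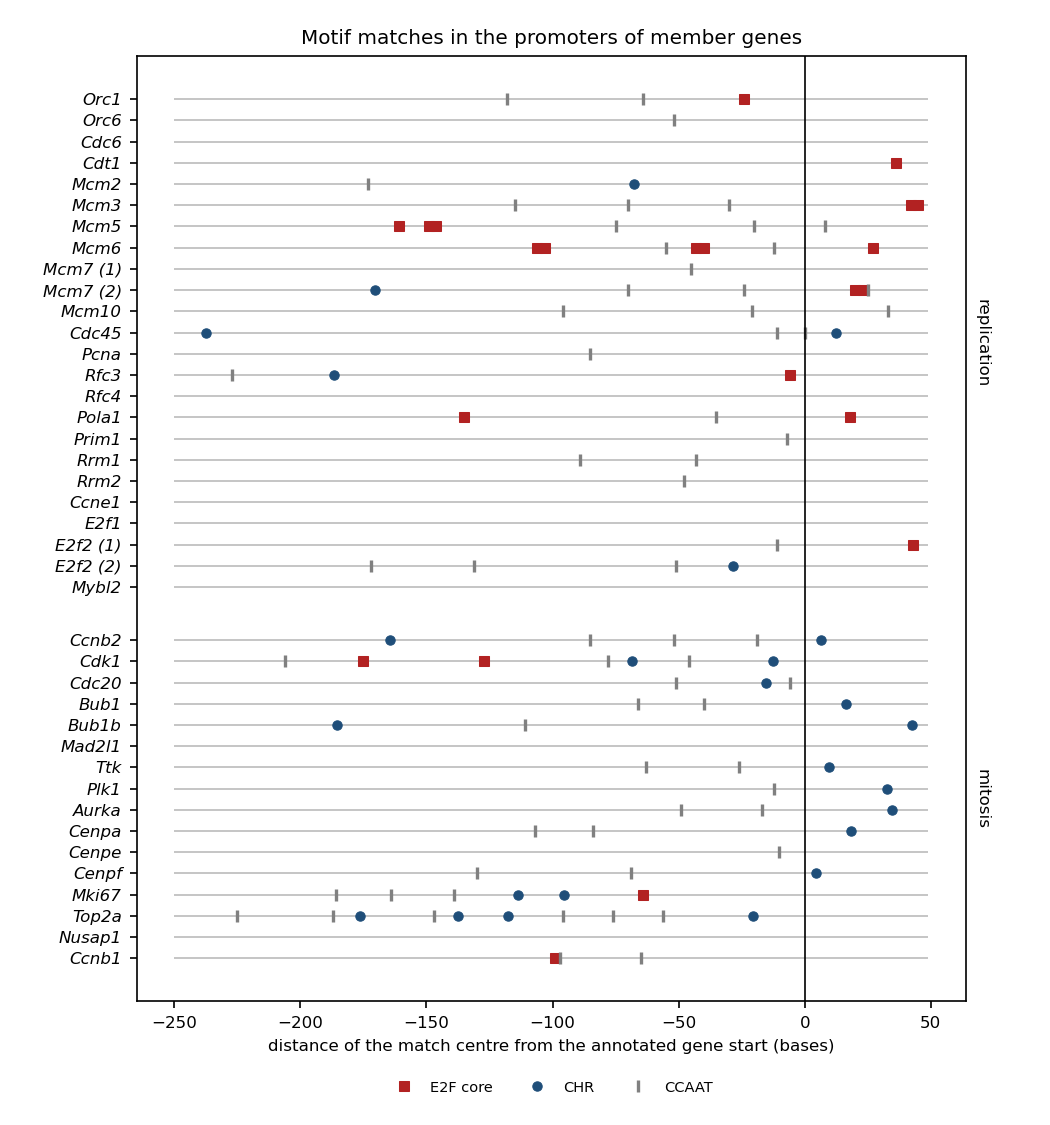
Matches of the E2F core (squares), CHR (circles) and CCAAT (ticks) in the 40 promoters of member genes, plotted by the distance in bases of the centre of the match from the annotated start. Genes are grouped into replication (24 promoters) and mitosis (16 promoters), and a number in brackets marks 2 starts of 1 gene. Most circles fall in the mitosis group and most squares in the replication group.

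The replication and mitosis genes read nearly alike on both arrays. Of the 44 members, 0 differed by at least 1.5-fold in either direction, against 7.21% of the genes above the floor and 6.38% of those above the 75th percentile. The median difference was -0.05 for the 26 replication genes, -0.05 for the 18 mitosis genes with a value, and 0.02 for all genes above the floor. The replication median minus the mitosis median was -0.0028, so the array values showed no separation of S phase from mitosis. That gap changed sign with the way probe sets were combined, and was 0.053 when the probe sets of a gene were averaged. The lowest and highest differences were -0.48 for E2f2 and 0.39 for Mybl2. The standard deviation of the differences was 0.15 over the members and 0.39 over all genes above the floor. Of the 44 members, 30 lay between the 25th and 75th percentile of all genes, which were at -0.12 and 0.16.

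More members read lower than higher. Of the 44, 30 read lower with OX40L-Tg APC, among them 18 of 26 replication and 12 of 18 mitosis genes, against 46.0% of the genes above the floor and 44.1% of those above the 75th percentile. At a size of 1.2-fold, 3 members were higher and 2 lower, against 14.3% higher and 12.4% lower among genes above the floor and 12.0% and 9.43% above the 75th percentile. The 3 higher were Mybl2, Ttk and Orc1, and the 2 lower were E2f2 and Cenpa. Summed intensity over the members was 61782 units with OX40L-Tg APC and 64232 units with Wt APC.

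Cell type markers differed by more than the members did. Of 13 T cell markers, 11 were above the floor. With OX40L-Tg APC 10 of these read lower, against 46.0% of all genes above the floor. The 11 markers had a median difference of -0.23, against 0.02 for all genes above the floor. Their summed intensities were 19987 and 23210 units for OX40L-Tg APC and Wt APC. Of 10 B cell markers, 7 were above the floor, with a median of 0.44 and sums of 1491 and 963 units in the same order. Blk went the other way at 42.7 and 47.4 units, and Pax5 and Cr2 were below the floor on both arrays. Of 12 markers of MHC class II and dendritic cells, 9 were above the floor, with a median of 0.41 and sums of 4236 and 2850 units. These sums include Batf3, a factor that activated T cells also use, at 574 and 95.1 units. In the same list Itgax read 22.7 and 19.9 units and Flt3 43.3 and 46.1 units, while Xcr1 and Ciita were below the floor. Of 8 macrophage and monocyte markers, 3 were above the floor and summed to 65.7 and 51.0 units, and Csf1r, Adgre1 and Lyz2 were below the floor. Of 7 erythroid markers, 4 were above the floor and summed to 273 and 1226 units. Hba-a1, an alpha globin gene, made up 207 and 1161 of these units, and Epor read 40.8 and 32.2 units. The part of these shifts in the members' differences was not tested, and in such RNA from a cell population fewer dividing cells and less transcript per cell cannot be told apart.

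**Figure D2:**
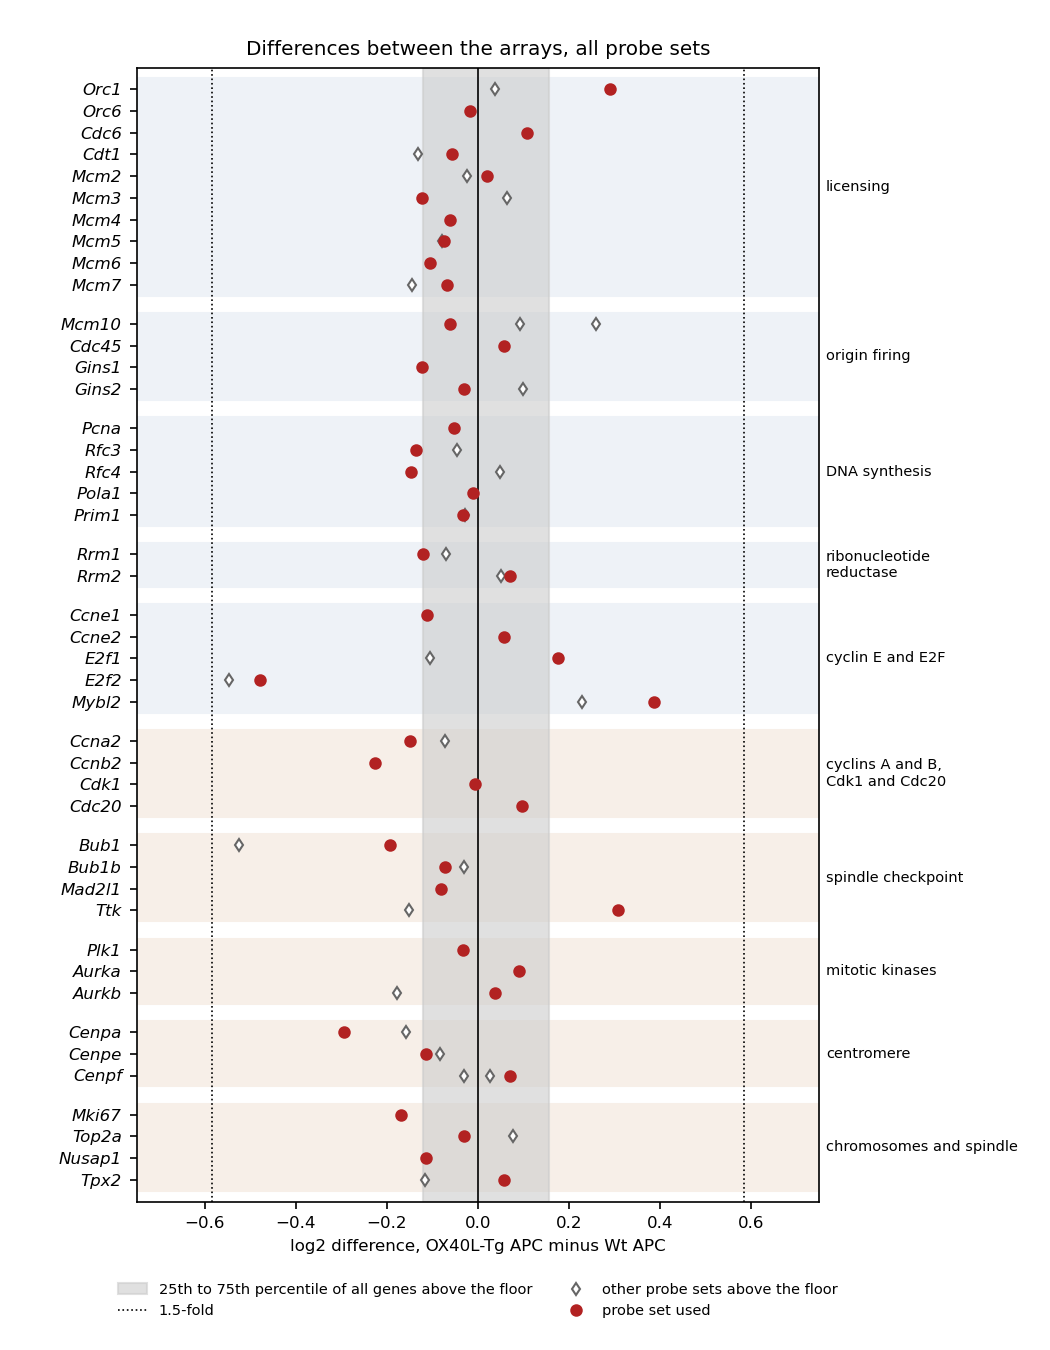
Log2 differences, OX40L-Tg APC minus Wt APC, of the 44 members grouped by role, with replication roles above mitosis roles. Filled circles are the probe set used for each gene, open diamonds its other probe sets above the floor, the grey band spans the 25th to 75th percentile of all genes above the floor, and dotted lines mark 1.5-fold. Filled circles stay inside the dotted lines, and E2f2, Mybl2, Ttk, Orc1 and Cenpa lie farthest from 0.

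The licensing genes, which load the helicase onto origins, held one of the higher members among many near zero. Orc1, the largest subunit of the origin recognition complex, read 378 units with OX40L-Tg APC and 309 units with Wt APC, a difference of 0.29. Its second probe set, a dim one at 34.3 and 33.4 units, differed by 0.04. Orc6, another subunit of that complex, read 616 and 623 units for OX40L-Tg APC and Wt APC. Cdc6, the ATPase that joins the complex to recruit the helicase, read 1194 units with OX40L-Tg APC and 1109 units with Wt APC, a difference of 0.11. Cdt1, which brings the helicase to Cdc6, read 2969 units with OX40L-Tg APC and 3089 units with Wt APC, and its probe sets above the floor differed by -0.06 and -0.13. The 10 licensing genes had a median difference of -0.06, with 7 lower, against 46.0% of all genes above the floor.

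The 6 subunits of the MCM2-7 helicase read close to zero, with a median difference of -0.07, a range of -0.12 to 0.02 and 0 past 1.2-fold. Of the 6, 5 read lower, against 46.0% of all genes above the floor, by amounts no larger than the scatter of 0.12 among probe sets of the same member gene. Mcm6, whose promoter is shown above, read 3435 units with OX40L-Tg APC and 3693 units with Wt APC, a difference of -0.10. Mcm2 was the exception in sign, at 1751 units with OX40L-Tg APC and 1727 units with Wt APC, and its second probe set differed by -0.02. Mcm3 read 992 units with OX40L-Tg APC and 1079 units with Wt APC. Its probe sets disagreed in sign, with differences of -0.12 and 0.06. Mcm4 read 1944 and 2028 units, Mcm5 1934 and 2037 units, and Mcm7 2470 and 2588 units, each with the OX40L-Tg APC value first and lower. The standard deviation across the 6 subunits, 0.05, was below that scatter as well, though the scatter takes in dim probe sets of other members. With 1 array a group, the subunits are not told apart by these values.

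The factors that activate the loaded helicase lay near zero, with 3 of 4 lower, against 46.0% of all genes above the floor. Cdc45, which completes the active helicase, read 516 units with OX40L-Tg APC and 495 units with Wt APC, a difference of 0.06. Gins1 and Gins2, both subunits of the GINS complex, differed by -0.12 and -0.03. Gins1 read 605 units with OX40L-Tg APC and 658 units with Wt APC, and Gins2 read 551 units with OX40L-Tg APC and 563 units with Wt APC. The second probe set of Gins2 differed by 0.10, so its sign depends on the probe set. Mcm10, needed for the helicase to start unwinding, read 666 units with OX40L-Tg APC and 695 units with Wt APC, a difference of -0.06. Its other probe sets were near the floor at under 18 units and differed by 0.09 and 0.26.

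Genes of DNA synthesis itself lay near zero, with a median of -0.05. In the probe sets used, 5 of 5 were lower, against 46.0% of all genes above the floor. Pcna, the sliding clamp of the polymerases, read 7608 units with OX40L-Tg APC and 7887 units with Wt APC, a difference of -0.05. Rfc3 and Rfc4, subunits of the complex that loads the clamp, differed by -0.14 and -0.15. Rfc3 read 563 units with OX40L-Tg APC and 619 units with Wt APC, and both of its probe sets were lower. Rfc4 read 1029 units with OX40L-Tg APC and 1140 units with Wt APC, while its second probe set differed by 0.05. Pola1, the catalytic subunit of the polymerase that starts new strands, read 569 and 573 units for OX40L-Tg APC and Wt APC. Prim1, the primase that makes its RNA primer, read 1377 and 1409 units in that order, with differences of -0.03 in both probe sets.

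The subunits of ribonucleotide reductase, which makes the building blocks of DNA, differed by small amounts of opposite sign. Rrm1, the large subunit, read 2119 units with OX40L-Tg APC and 2302 units with Wt APC, and its probe sets differed by -0.12 and -0.07. Rrm2, the small subunit whose level is tied to S phase, read 2358 units with OX40L-Tg APC and 2246 units with Wt APC, and its probe sets differed by 0.07 and 0.05.

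The regulators at the G1 to S transition were the most scattered role. Their differences had a standard deviation of 0.33 over 5 genes, against 0.10 over the other 21 replication genes. Of these regulators, E2f1, E2f2, Mybl2 and Ccne2 were, together with Orc1, the dimmest of all members. The part of low level in this spread was not tested. E2f2, a factor of the E2F family, read 292 units with OX40L-Tg APC and 407 units with Wt APC, 1.39-fold lower. Its second probe set read 211 units with OX40L-Tg APC and 309 units with Wt APC, so that the differences of -0.48 and -0.55 had the same sign and nearly the same size. Mybl2, which encodes B-Myb and is itself an E2F target, read 300 units with OX40L-Tg APC and 229 units with Wt APC, 1.31-fold higher. Its dimmer second probe set read 55.0 and 47.0 units, a difference of 0.23. E2f2 and Mybl2 were thus the members at either end of the range, and each kept its sign in both probe sets.

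E2f1 and the E2F genes of the wider replication list lay closer to zero than E2f2. E2f1, the founding activator of the family, read 208 units with OX40L-Tg APC and 184 units with Wt APC, a difference of 0.18, whereas its second probe set differed by -0.10. E2f3, E2f7 and E2f8, taken from the wider replication list after their values were seen, differed by 0.07, 0.05 and -0.04. E2f7 and E2f8 are the repressors of the family that close the E2F wave, and E2f3 is an activator. Ccne1 and Ccne2, the E cyclins that activate Cdk2 at the start of S phase, differed by -0.11 and 0.06. Ccne1 read 566 units with OX40L-Tg APC and 611 units with Wt APC, and Ccne2 read 392 units with OX40L-Tg APC and 377 units with Wt APC.

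**Figure D3:**
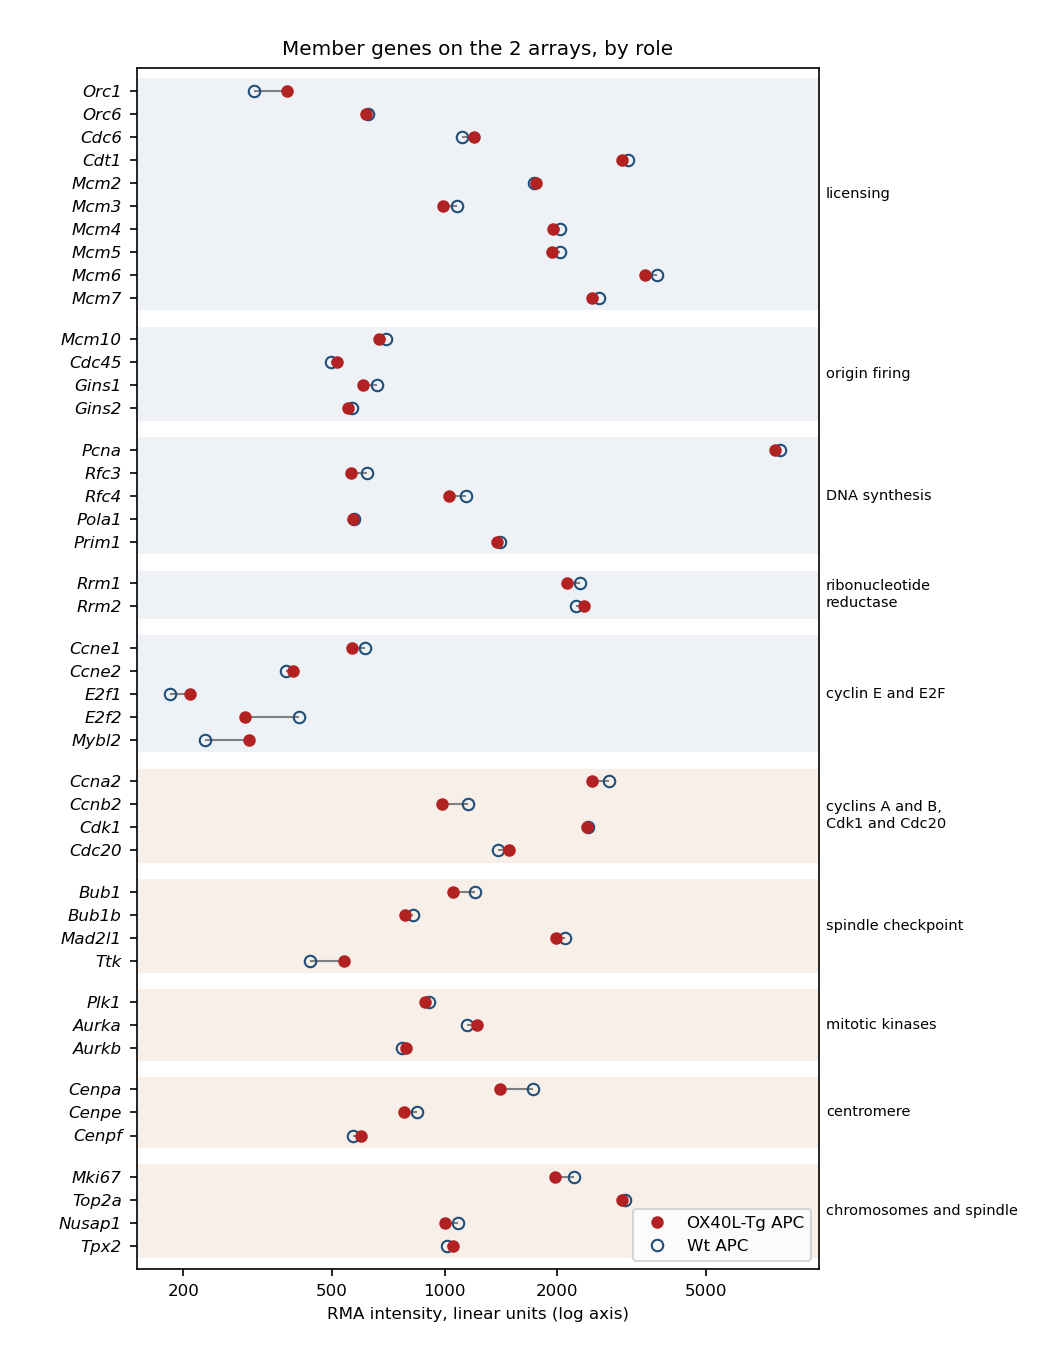
RMA intensities of the 44 members on a log axis, grouped by role, with filled circles for OX40L-Tg APC and open circles for Wt APC, 1 array each. A grey line joins the values of a gene. The lines are short for most genes, and values run from 208 to 7608 units with OX40L-Tg APC and from 184 to 7887 units with Wt APC.

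Among the mitotic cyclins and their partners, the B-type cyclin Ccnb2 was the lowest. It read 985 units with OX40L-Tg APC and 1152 units with Wt APC, a difference of -0.23 in its only probe set. Ccna2, the cyclin A of S phase and G2, read 2476 units with OX40L-Tg APC and 2745 units with Wt APC, and its probe sets differed by -0.15 and -0.07. Cdk1, the kinase that both cyclins activate, read 2405 and 2416 units for OX40L-Tg APC and Wt APC, a difference of -0.01. Cdc20, which turns on the anaphase-promoting complex that destroys these cyclins, read 1487 units with OX40L-Tg APC and 1389 units with Wt APC, a difference of 0.10. Cdk1 thus read almost the same on both arrays, and Cdc20 slightly higher with OX40L-Tg APC. With 1 array a group, Ccnb2 is not told apart from them by these values.

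The spindle checkpoint, which holds anaphase until every chromosome is attached, held the highest mitosis gene. Ttk, the Mps1 kinase that starts the checkpoint at kinetochores, read 539 units with OX40L-Tg APC and 435 units with Wt APC, 1.24-fold higher. Its second probe set, close to the floor at 15.3 and 17.0 units, differed by -0.15. Bub1, a checkpoint kinase that marks the centromere, read 1051 units with OX40L-Tg APC and 1201 units with Wt APC, a difference of -0.19, and its dim second probe set differed by -0.53. Bub1b, which encodes BubR1, and Mad2l1, which encodes Mad2, both build the inhibitor of Cdc20. Bub1b read 782 units with OX40L-Tg APC and 822 units with Wt APC, and its probe sets differed by -0.07 and -0.03. Mad2l1 read 1983 units with OX40L-Tg APC and 2097 units with Wt APC, a difference of -0.08. Of the 4 checkpoint genes 3 were therefore lower, against 46.0% of all genes above the floor, and Ttk alone was higher.

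The mitotic kinases differed by between -0.03 and 0.09 in the probe sets used. Plk1, the polo-like kinase of mitotic entry and spindle assembly, read 887 units with OX40L-Tg APC and 907 units with Wt APC. Aurka, the aurora kinase of the spindle poles, read 1218 units with OX40L-Tg APC and 1144 units with Wt APC. Aurkb, the aurora kinase of the centromere, read 787 units with OX40L-Tg APC and 767 units with Wt APC, in a probe set marked as prone to cross-hybridisation. Its second probe set differed by -0.18, so that no direction can be given for Aurkb.

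The centromere genes included the lowest mitosis gene. Cenpa, the histone H3 variant that defines the centromere, read 1404 units with OX40L-Tg APC and 1720 units with Wt APC, 1.23-fold lower, and its dimmer second probe set differed by -0.16. Cenpe, a kinetochore motor that aligns chromosomes, read 778 units with OX40L-Tg APC and 842 units with Wt APC, and both probe sets were lower. Cenpf, a large kinetochore protein that builds up in G2, read 596 units with OX40L-Tg APC and 567 units with Wt APC, and its 3 probe sets spanned -0.03 to 0.07.

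Of the chromosome and spindle proteins, 3 of 4 were lower, against 46.0% of all genes above the floor. Mki67, the Ki-67 antigen that coats mitotic chromosomes and marks dividing cells, read 1976 units with OX40L-Tg APC and 2221 units with Wt APC, a difference of -0.17. Top2a, whose promoter is shown above, read 2972 units with OX40L-Tg APC and 3037 units with Wt APC, while its second probe set differed by 0.08. Nusap1, which bundles spindle microtubules, read 1002 units with OX40L-Tg APC and 1084 units with Wt APC, a difference of -0.11. Tpx2, which activates Aurka on the spindle, read 1055 units with OX40L-Tg APC and 1013 units with Wt APC, and its probe sets differed by 0.06 and -0.12.

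Probe sets of the same gene give the only view of technical scatter on these arrays. Of the 44 members, 26 had more than 1 probe set above the floor, and in 15 of these all probe sets had the same sign. In the other 11, Mcm2, Mcm3, Mcm10, Gins2, Rfc4, E2f1, Ttk, Aurkb, Cenpf, Top2a and Tpx2, they did not. The pooled standard deviation among probe sets of a gene was 0.12 over these 26 members and 0.18 over 4195 genes with several probe sets. The standard deviation between members was 0.15, but it is not like for like with the scatter within them. Each member was read from its brightest probe set, whereas the scatter takes in dim ones, such as that of Ttk at 15.3 and 17.0 units. Probe sets share their RNA, so this scatter holds no culture or animal error.

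The wider machinery read much like the members. Of 46 other replication genes, 42 were above the floor and 27 of these were lower, against 46.0% of all genes above the floor. Past 1.2-fold there were 0 in either direction, against 14.3% higher and 12.4% lower among all genes above the floor. The median difference of these replication genes was -0.04. The 4 with the largest size of difference were Pole at -0.23, Orc2 at 0.22, Lig1 at -0.21 and Chaf1b at -0.21. Pole is the catalytic subunit of the leading strand polymerase, Orc2 a subunit of the origin recognition complex, Lig1 the ligase that seals Okazaki fragments, and Chaf1b a subunit of the chromatin assembly factor that follows the fork. All 3 probe sets of Orc2 were higher, between 0.22 and 0.25. Of the other subunits of that complex, Orc1 differed by 0.29 and 0.04 in its probe sets, and Orc6 by -0.02. Orc4 and Orc5, taken from the wider list after their values were seen, differed by 0.16 and 0.03.

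Of 56 other mitosis genes, 54 were above the floor, 40 were lower, 2 passed 1.2-fold downward and 0 upward, and the median difference was -0.04. The shares among all genes above the floor were 46.0% lower, 12.4% past 1.2-fold downward and 14.3% upward. Cdc25b, a phosphatase that activates Cdk1, read 340 units with OX40L-Tg APC and 433 units with Wt APC, 1.27-fold lower. Cenpk, a subunit of the constitutive centromere complex, read 626 units with OX40L-Tg APC and 763 units with Wt APC, 1.22-fold lower, but its second probe set differed by 0.02. Gtse1, a microtubule-associated protein of G2, and Melk, a kinase of dividing cells, differed by 0.26 and 0.25. Across members and both wider lists, 0 of 140 genes above the floor differed by at least 1.5-fold, against 7.21% of all genes above the floor.

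**Figure D4:**
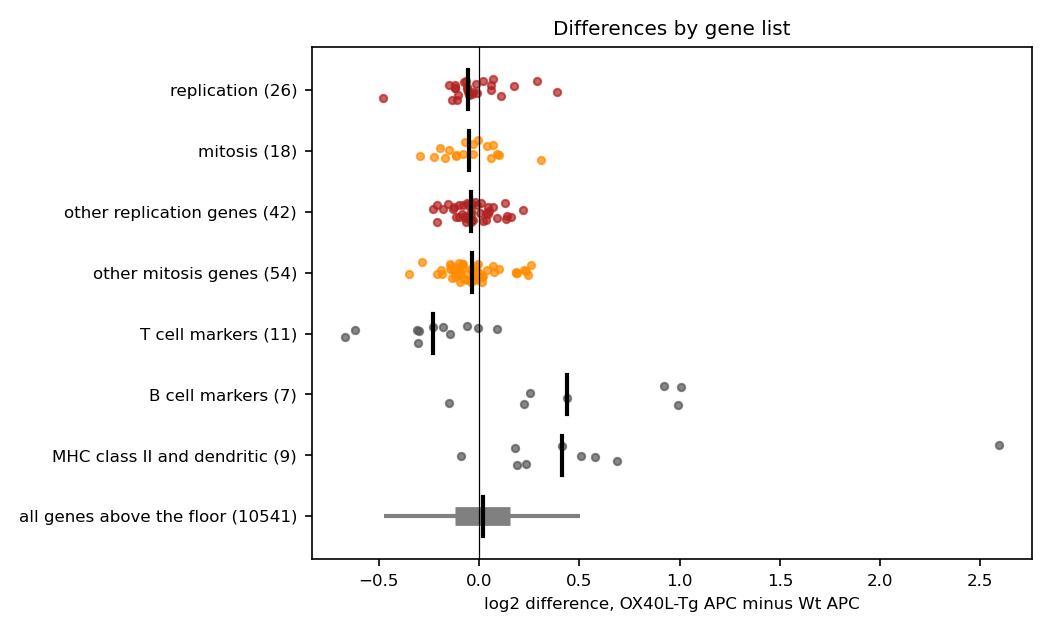
Log2 differences, OX40L-Tg APC minus Wt APC, for each gene above the floor in 7 lists, with the number of genes in brackets and a black bar at the median. The bottom row gives all 10541 genes above the floor, with a thick line from the 25th to the 75th percentile and a thin line from the 5th to the 95th. Replication and mitosis genes cluster just below 0, T cell markers lie lower, with a median of -0.23, and B cell markers and MHC class II and dendritic markers lie higher, with medians of 0.44 and 0.41. Cd2 among the T cell markers lies above 0, and Blk and Flt3 lie below 0 in the other marker lists.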

How the data were processed

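Intensities were deposited for 45141 probe sets on 2 arrays, 1 for each group. The authors made them with RMA, per the submitters' processing notes, whose version the sources used here do not state. RMA corrects background, equalises the arrays and summarises probes. It also draws low intensities together, so differences of dim probe sets are understated. The intensities ran from 4.69 to 14686 units, a linear scale, and log2 was taken first.

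The platform annotation paired 28898 probe sets with 1 gene symbol and 551 with several, which named no gene here, and 15692 were unnamed. Entrez numbers of 28689 probe sets matched the RefSeq table of GRCm38.p6, which changed 0 symbols. The members, the wider gene lists, the marker lists and the sizes of 1.5-fold and 1.2-fold were chosen with earlier results of these data known. All 45 members were to be named, with the 4 largest differences of each wider list, and as promoters the replication member with the most E2F core matches and the mitosis member with the most CHR matches. With 1 array a group no test was run, and precision is limited by the number of arrays. Alternatives changed the choice of probe set, the pseudocount, centring, a lowess correction on level, the floor and the make-up of the groups. Python 3.11.15, numpy 2.4.6, pandas 2.3.3, statsmodels 0.14.6 and matplotlib 3.10.9 were used, and the calculations were tested on simulated arrays.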

Additional observations from a re-analysis of the deposited data

How the results depend on the processing

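The median of the replication genes stayed negative under every alternative tried, between -0.07 and -0.03. That of the mitosis genes did so too, between -0.08 and -0.03. Means over members were -0.02 and -0.05 in the same order, and 0 members passed 1.5-fold under any alternative. Moving or dropping the floor could change none of these values, because all 44 members stood above the 75th percentile. The gap between the medians, replication minus mitosis, moved to 0.053 when all probe sets of a gene were averaged (the cause was not tested). It was also positive with the median over probe sets (0.04) and the lowess correction (0.01). With means over members in place of medians, the gap was 0.02. The number of members past 1.2-fold was 3 when probe sets were averaged or their median taken, and 5 otherwise. Averaging the probe sets of a gene moved 6 of 44 member values by at least the scatter among probe sets and changed 5 signs. Taking their median moved 6 of 44 and changed 5 signs as well. Leaving out probe sets marked as shared or prone to cross-hybridisation moved 1 of 43 and changed 1 sign. The changes of sign included those of Mcm10, Gins2 and Aurkb. Centring, the pseudocount and the lowess correction moved 0 of 44, but such small shifts could hardly reach that scatter. Members with 1 probe set could not change when probe sets were combined. Without probe sets marked as shared or prone to cross-hybridisation, 43 members had a value. No paired analysis was possible because each group has 1 array. Nothing in these data measures the spread between cultures or mice, so differences of the size seen here cannot be assigned to the APC.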
